A study of Mus musculus with 14 samples.

Results

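The histone cluster genes are the genes whose platform symbols start with Hist1h, Hist2h, Hist3h or Hist4h. Of 52 such symbols on the array, 18 had at least 1 probe set (the array's unit of measurement, mostly 1 exon) annotated to them alone, and these 18 genes with their 38 probe sets are described here, among 15803 named genes in all. The other 34 symbols appeared only on rows that name several genes at once. Genes were chosen by name, not by any measured value, and a gene's level is the mean log2 value over its own probe sets. Exon arrays measured RNA from 14 mouse thymic lymphomas, 7 tumours of the strain labelled Vav-SB and 7 of the strain labelled CD4-SB. Both strains model T-ALL, an acute leukaemia of T-cell precursors, by means of Sleeping Beauty, a transposon that mutates genes where it inserts. According to the series title, the study asks how the cell of origin shapes which mutations are selected. Vav1 is a gene of most blood lineages and Cd4 one of T-lineage cells. The labels give the strains by these short names only, while the sources used here state neither the alleles, nor what drives the transposase, nor how old the animals were. There is no untreated or normal thymus among the 14 samples.

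Histones package DNA. Pairs of the core histones H2A, H2B, H3 and H4 form the nucleosome, and the linker histone H1 binds where DNA enters and leaves it. Most genes of the clusters are replication-dependent: they are transcribed in S phase, when new DNA must be packaged, and their messenger RNAs end in a stem-loop in place of a poly(A) tail. A few members are made mainly in testis (Hist1h1t, Hist1h2aa and Hist1h2ba), and replacement histones encoded elsewhere in the genome are made through the whole cell cycle. In fast-dividing cells such as those of a lymphoma, replication-dependent histone mRNA is abundant.

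By family the 18 genes are 6 linker histone genes (Hist1h1a, Hist1h1b, Hist1h1c, Hist1h1d, Hist1h1e and Hist1h1t, all 6 H1 symbols of the platform), 4 of 12 H2A genes (Hist1h2aa, Hist1h2ac, Hist1h2ae and Hist3h2a), 6 of 10 H2B genes (Hist1h2ba, Hist1h2bp, Hist2h2bb, Hist2h2be, Hist3h2ba and Hist3h2bb), 1 of 12 H3 genes (Hist2h3c2) and 1 of 12 H4 genes (Hist2h4). The Hist1h genes lie on chromosome 13, the Hist2h genes on chromosome 3 and the Hist3h genes on chromosome 11. In the current nomenclature the H1 genes are H1f1 (Hist1h1a), H1f5 (Hist1h1b), H1f2 (Hist1h1c), H1f3 (Hist1h1d), H1f4 (Hist1h1e) and H1f6 (Hist1h1t), Hist3h2a is H2aw and Hist3h2ba is H2bu2. Hist3h2bb is annotated as a transcribed pseudogene, H2bu1-ps. The core histone genes of the clusters are near-identical to one another, so even a probe set annotated to 1 gene can bind transcripts of its relatives.

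The promoters of the H1 genes are shown because 2 of the 6 differed between the models, and those of Hist3h2a and Hist3h2ba because both did. Each sequence runs 5′ to 3′ from 170 bases before to 10 bases after the annotated start of the gene, from RefSeq on GRCm38.p6. Capitals mark 4 motifs found on either strand: the CCAAT box (CCAAT or ATTGG), the TATA box (TATAAA or TTTATA), the H1 box (AAACACA or TGTGTTT) and the octamer (ATTTGCAT or ATGCAAAT), none of which overlaps another of these in the sequences shown.
Hist1h1a: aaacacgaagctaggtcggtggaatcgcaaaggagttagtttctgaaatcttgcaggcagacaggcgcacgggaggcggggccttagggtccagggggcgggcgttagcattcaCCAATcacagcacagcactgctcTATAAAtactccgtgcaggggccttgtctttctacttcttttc
Hist1h1b: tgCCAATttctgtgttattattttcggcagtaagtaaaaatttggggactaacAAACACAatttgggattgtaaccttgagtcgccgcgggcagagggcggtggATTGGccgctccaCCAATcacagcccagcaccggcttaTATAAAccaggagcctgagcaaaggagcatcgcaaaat
Hist1h1c: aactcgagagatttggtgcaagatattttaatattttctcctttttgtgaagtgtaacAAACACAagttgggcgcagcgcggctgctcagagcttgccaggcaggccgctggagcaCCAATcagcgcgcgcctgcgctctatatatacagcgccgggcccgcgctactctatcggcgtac
Hist1h1d: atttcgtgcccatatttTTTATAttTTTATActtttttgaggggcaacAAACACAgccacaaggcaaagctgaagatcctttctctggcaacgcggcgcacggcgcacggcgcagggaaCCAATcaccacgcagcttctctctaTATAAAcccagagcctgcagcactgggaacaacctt
Hist1h1e: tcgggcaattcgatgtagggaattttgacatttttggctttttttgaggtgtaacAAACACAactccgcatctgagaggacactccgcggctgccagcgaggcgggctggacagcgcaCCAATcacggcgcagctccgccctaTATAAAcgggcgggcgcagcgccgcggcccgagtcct
Hist1h1t: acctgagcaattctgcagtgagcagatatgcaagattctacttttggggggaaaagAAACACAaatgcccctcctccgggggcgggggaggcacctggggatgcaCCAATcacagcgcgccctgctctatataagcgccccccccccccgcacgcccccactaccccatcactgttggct
Hist3h2a: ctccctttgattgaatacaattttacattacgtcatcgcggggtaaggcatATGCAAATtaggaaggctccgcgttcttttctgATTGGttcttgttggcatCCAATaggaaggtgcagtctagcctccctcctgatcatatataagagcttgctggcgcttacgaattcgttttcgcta
Hist3h2ba: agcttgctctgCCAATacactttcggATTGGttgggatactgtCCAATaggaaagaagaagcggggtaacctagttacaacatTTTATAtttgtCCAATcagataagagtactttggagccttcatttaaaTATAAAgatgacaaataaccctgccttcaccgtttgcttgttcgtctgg
These windows are chr13:23763498-23763677 on the plus strand (Hist1h1a), chr13:21780616-21780795 on the minus strand (Hist1h1b), chr13:23738637-23738816 on the plus strand (Hist1h1c), chr13:23554862-23555041 on the plus strand (Hist1h1d), chr13:23622549-23622728 on the minus strand (Hist1h1e), chr13:23695641-23695820 on the plus strand (Hist1h1t), chr11:58954515-58954694 on the plus strand (Hist3h2a) and chr11:58948741-58948920 on the plus strand (Hist3h2ba). Hist3h2ba, Hist3h2bb, Trim17 and Hist3h2a are neighbours in that order on chromosome 11.

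Promoters of 300 bases (250 before and 50 after the start) were matched for 15 of the 18 genes, and Hist2h2be, Hist2h4 and Hist3h2bb were not matched. Letters were counted on either strand anywhere in the 300 bases. The CCAAT box occurred in 15 of the 15, against 37.4% of 32851 mouse promoters, and the TATA box in 10 of 15, against 13.6%. The only CCAAT match of Hist2h3c2 lay after the start, at base 15. TATA letters lay 142 (Hist1h2ae) and 212 (Hist1h2bp) bases before the start on the opposite strand, and 94 before it in Hist1h2ba. In the other promoters with TATA letters, a match lay 26 to 39 bases before the start. The H1 box occurred in 5 of 6 H1 promoters, at 112 to 122 bases before the start, in 2 of 8 H2A and H2B promoters and in 7.18% of all promoters. Hist1h1a, 1 of the 2 H1 genes that differed, is the H1 promoter without these letters, while Hist1h1b, the other, holds them. The octamer occurred in 6 of 8 H2A and H2B promoters, in 0 of 6 H1 promoters and in 1.74% of all promoters. The promoters of Hist1h2aa and Hist1h2ba overlap on opposite strands. Their H1 box letters, the 2 counted among H2A and H2B promoters, are 1 shared site, and so are their octamer letters. Each shared site was counted in both promoters. Of the 2 chromosome 11 genes that differed, Hist3h2a holds the octamer and Hist3h2ba does not. The motifs held by the promoters did not separate the 4 genes that differed from the rest, and a match of letters does not show that a factor binds.

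Between the models, 4 of the 18 histone cluster genes were higher in Vav-SB tumours and 0 were lower: the linker histone genes Hist1h1a and Hist1h1b, the H2A gene Hist3h2a and the H2B gene Hist3h2ba. This is 22.2% of the members, where 7.28% of all 15803 genes were higher and 7.18% lower (limma, Benjamini-Hochberg adjusted p under 0.05 over all genes), and whether these shares differ was not tested. The differences of the 18, Vav-SB minus CD4-SB, ran from -0.09 to 2.18 on the log2 scale with a median of 0.23, and 13 were above 0, where the median over all genes was 0.00. At an unadjusted p under 0.05, 6 were higher and 0 lower, where 13.4% of all genes were higher and 14.4% lower. In tumours measured whole, fewer cells of a type and less RNA per cell cannot be told apart. Probe sets differ in how brightly they shine, so levels are compared here between tumours within a gene and never between genes.

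**Figure D1:**
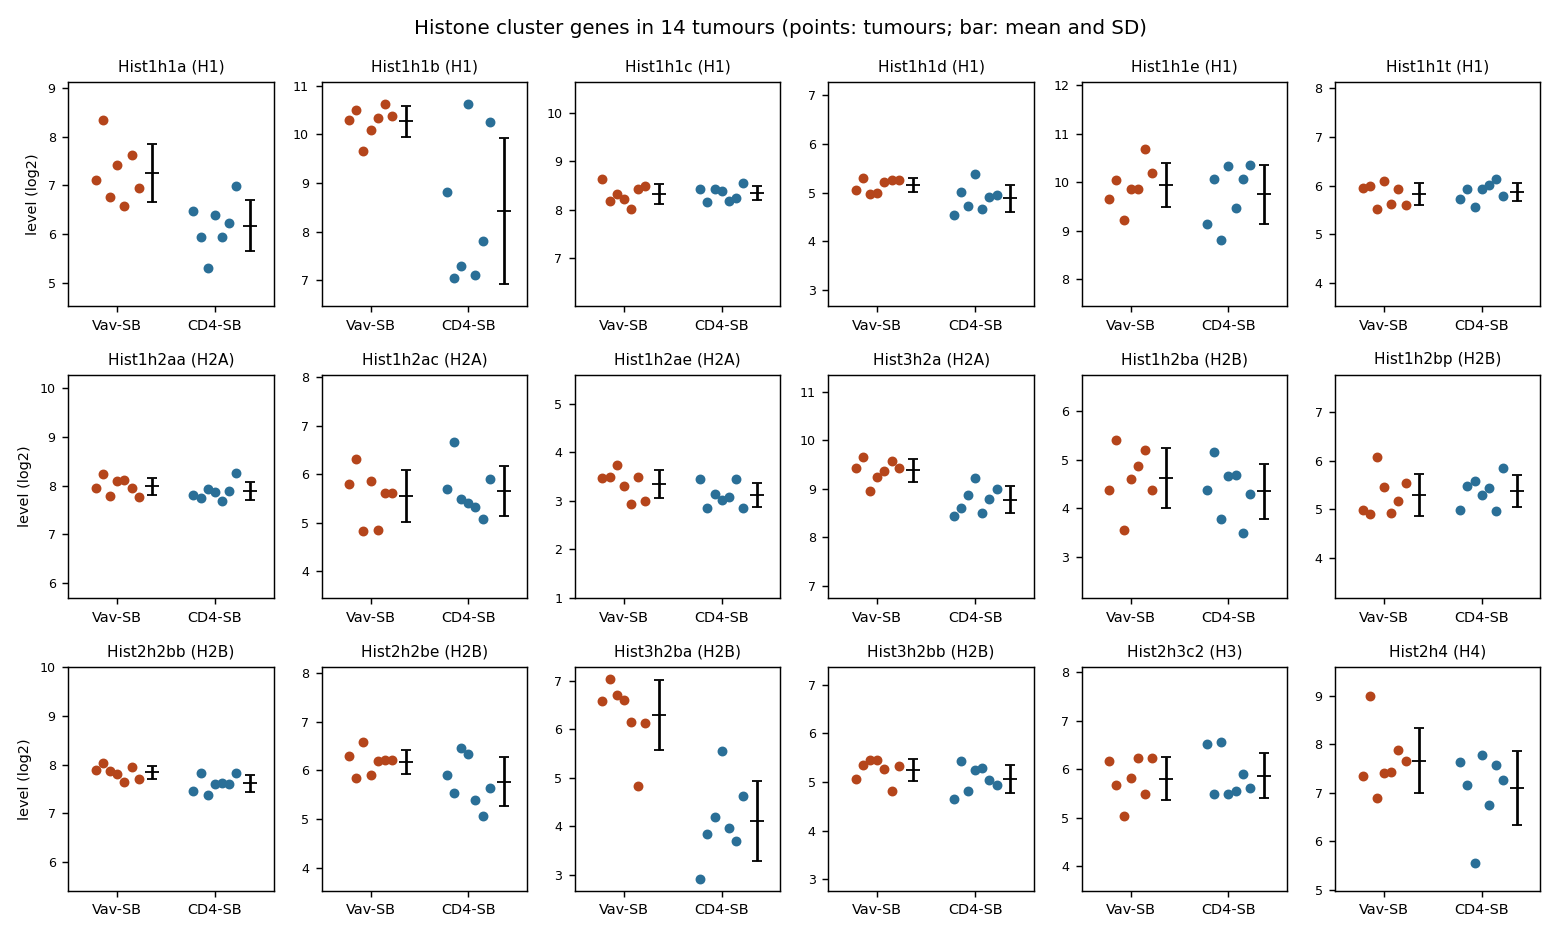
Level of each of the 18 histone cluster genes (log2, vertical axes of equal span at different heights) in 7 Vav-SB and 7 CD4-SB tumours; each point is a tumour, and the bar beside each group is the mean and SD. Hist3h2ba overlaps least, Hist1h1b is spread from 7.05 to 10.62 in CD4-SB tumours, and the points of Hist1h1c, Hist1h1t and Hist1h2aa lie at like levels in both models.

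The mean over the 18 genes was 6.78, 7.07, 6.55, 6.79, 6.65, 6.82 and 6.77 in Vav-SB tumours 1 to 7, against 6.27, 6.33, 6.10, 6.70, 6.15, 6.22 and 6.61 in CD4-SB tumours 1 to 7. CD4-SB tumours 4 and 7 lay within the Vav-SB range and the other 5 below it. Over the 6 H1 genes alone, the means were 7.79, 8.07, 7.41, 7.79, 7.61, 8.10 and 7.82 in Vav-SB tumours and 7.19, 7.02, 6.69, 7.84, 6.90, 7.23 and 7.82 in CD4-SB tumours. The same 2 CD4-SB tumours reached the Vav-SB values and the other 5 did not. This is not a separate observation, because the 6 H1 genes are part of the 18. Both means hold Hist1h1a and Hist1h1b, with differences of 1.09 and 1.85, against -0.05 to 0.27 in the other 4 H1 genes.

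Among the linker histones, Hist1h1b showed the larger difference. It encodes an H1 subtype of dividing cells, and its level was 10.30, 10.51, 9.66, 10.10, 10.33, 10.63 and 10.38 in Vav-SB tumours, against 8.82, 7.05, 7.30, 10.62, 7.10, 7.80 and 10.26 in CD4-SB tumours. The Vav-SB tumours lay close together. The CD4-SB tumours were widely spread: tumours 4 and 7 sat inside the Vav-SB range and the other 5 below every Vav-SB tumour. The means were 10.27 ± 0.32 in Vav-SB against 8.42 ± 1.51 in CD4-SB (SD, n = 7 each), a difference of 1.85 ± 0.53 (SE, 95% interval 0.72 to 2.98), or 3.6-fold (limma adjusted p = 0.0295). The gene rests on 1 probe set, and the call ended without any 1 of Vav-SB tumours 1, 2, 5, 6 and 7 or CD4-SB tumours 2, 3, 5 and 6, where differences ran from 1.62 to 1.85 and the adjusted p went up to 0.061.

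Hist1h1a, a further H1 subtype of dividing cells, was at 7.12, 8.35, 6.76, 7.42, 6.58, 7.63 and 6.95 in Vav-SB tumours, against 6.47, 5.93, 5.29, 6.38, 5.94, 6.22 and 6.98 in CD4-SB tumours. The groups overlapped: 6 CD4-SB tumours lay below every Vav-SB tumour, and CD4-SB tumour 7 lay above 3 of them. The means were 7.26 ± 0.60 in Vav-SB against 6.17 ± 0.53 in CD4-SB (SD, n = 7 each), a difference of 1.09 ± 0.28 (SE, 95% interval 0.49 to 1.68) or 2.12-fold (limma adjusted p = 0.0176). Its 2 probe sets pointed the same way. The dim one differed by 1.53 (5.18 ± 0.89 in Vav-SB against 3.65 ± 0.72 in CD4-SB, limma adjusted p = 0.024 over all probe sets), and the bright one by 0.65 (9.34 ± 0.41 in Vav-SB against 8.69 ± 0.62 in CD4-SB, limma adjusted p = 0.15). Restricted to probe sets above the median level, the gene's call ended (0.65, limma adjusted p = 0.101).

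The other 4 linker histone genes did not pass. Hist1h1e encodes a main somatic H1 subtype and was at 9.65, 10.05, 9.23, 9.87, 9.86, 10.69 and 10.19 in Vav-SB tumours, against 9.13, 10.06, 8.82, 10.34, 9.47, 10.07 and 10.35 in CD4-SB tumours. The groups overlapped widely, with a difference of 0.18 (95% interval -0.38 to 0.75, limma adjusted p = 0.714). Hist1h1c, a somatic subtype found also in resting cells, averaged 8.33 ± 0.21 in Vav-SB against 8.34 ± 0.15 in CD4-SB tumours (difference -0.01, 95% interval -0.23 to 0.20, limma adjusted p = 0.954). Behind that mean, its 2 probe sets differed in opposite directions, by 0.47 and -0.49, and neither passed (limma adjusted p = 0.0916 and 0.174). Hist1h1d, also somatic, averaged 5.15 ± 0.14 in Vav-SB against 4.89 ± 0.28 in CD4-SB (0.27, limma adjusted p = 0.148). Of its 2 probe sets, 1 differed by 0.53 (7.41 ± 0.31 in Vav-SB against 6.88 ± 0.52 in CD4-SB, limma adjusted p = 0.151). The other was near the bottom of the table, at 2.90 ± 0.18 in Vav-SB against 2.89 ± 0.17 in CD4-SB (limma adjusted p = 0.99). Hist1h1t, the testis subtype, averaged 5.82 ± 0.23 in Vav-SB against 5.87 ± 0.19 in CD4-SB (-0.05, limma adjusted p = 0.837). The difference between one H1 gene's change and another's was not tested.

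**Figure D2:**
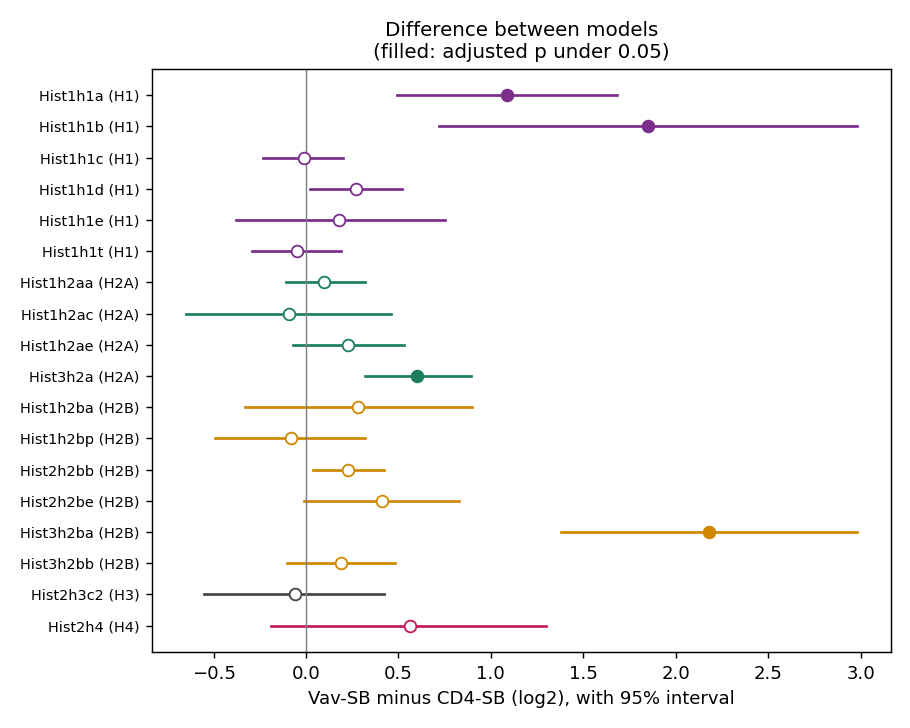
Difference of each histone cluster gene, Vav-SB minus CD4-SB (log2), with its 95% interval; rows run by family and filled points passed at an adjusted p under 0.05. The 4 filled points are Hist1h1a at 1.09, Hist1h1b at 1.85, Hist3h2a at 0.60 and Hist3h2ba at 2.18, and the 14 open points lie between -0.09 and 0.56.

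The largest difference of the 18 genes was in Hist3h2ba, an H2B gene outside the large chromosome 13 cluster. It was at 6.59, 7.04, 6.71, 6.61, 6.14, 4.83 and 6.12 in Vav-SB tumours, against 2.91, 3.84, 4.19, 5.55, 3.97, 3.71 and 4.63 in CD4-SB tumours. All Vav-SB tumours except tumour 6 lay above every CD4-SB tumour, and CD4-SB tumour 4 was the highest of its group. The means were 6.29 ± 0.72 in Vav-SB against 4.11 ± 0.82 in CD4-SB (SD, n = 7 each), a difference of 2.18 ± 0.38 (SE, 95% interval 1.38 to 2.98) or 4.53-fold (limma adjusted p = 0.00178). The gene rests on 1 dim probe set. Both group means lay below 7.22, the median level of all genes, and CD4-SB values went down to 2.91. The filters on dim genes and dim probe sets therefore left it out. Single tumours left out gave differences of 1.98 to 2.42, all past the threshold. The other H2B genes did not pass, with differences of -0.08 (Hist1h2bp) to 0.41 (Hist2h2be). Hist2h2be averaged 6.17 ± 0.24 in Vav-SB against 5.76 ± 0.51 in CD4-SB tumours (limma adjusted p = 0.194). Its 3 probe sets differed by -0.19, 0.52 and 0.90, and none passed (limma adjusted p = 0.817, 0.339 and 0.0746). Hist2h2bb, with 7 probe sets the most widely covered member, averaged 7.84 ± 0.14 in Vav-SB against 7.61 ± 0.17 in CD4-SB (0.23, limma adjusted p = 0.108). Of these 7 probe sets, 1 passed, at 8.72 ± 0.39 in Vav-SB against 7.53 ± 0.94 in CD4-SB (1.19, limma adjusted p = 0.0467), and the other 6 differed by -0.05 to 0.21. The testis gene Hist1h2ba differed by 0.28 (limma adjusted p = 0.585), and the pseudogene Hist3h2bb, next to Hist3h2ba, by 0.19 (limma adjusted p = 0.402).

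Of the H2A genes, Hist3h2a passed. It was at 9.43, 9.66, 8.96, 9.24, 9.37, 9.58 and 9.42 in Vav-SB tumours, against 8.43, 8.61, 8.88, 9.23, 8.51, 8.78 and 9.0 in CD4-SB tumours. All but Vav-SB tumour 3 stood above the CD4-SB tumours, of which numbers 4 and 7 were the highest. The means were 9.38 ± 0.23 in Vav-SB against 8.78 ± 0.28 in CD4-SB (SD, n = 7 each), a difference of 0.60 ± 0.13 (SE, 95% interval 0.32 to 0.89) or 1.52-fold (limma adjusted p = 0.00837). Its 3 probe sets differed by 1.14 (limma adjusted p = 0.018), 0.54 (limma adjusted p = 0.184) and 0.14 (limma adjusted p = 0.722), and with the median over them in place of the mean the call ended (0.32, limma adjusted p = 0.201). A further 7 probe sets are shared by Hist3h2a and its neighbour Trim17, a ubiquitin ligase gene. Of these, 0 passed in limma, 0 also had an unadjusted p under 0.05, and their median difference was 0.04. The H2A genes Hist1h2ac and Hist1h2ae differed by -0.09 and 0.23 (limma adjusted p = 0.859 and 0.316), Hist1h2ae at levels of 3.34 ± 0.29 in Vav-SB against 3.11 ± 0.25 in CD4-SB near the bottom of the table. Hist1h2aa, a testis gene, averaged 7.99 ± 0.17 in Vav-SB against 7.88 ± 0.19 in CD4-SB (0.10, limma adjusted p = 0.565).

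Hist2h4, the H4 gene with a probe set of its own, was at 7.35, 9.0, 6.89, 7.41, 7.42, 7.88 and 7.66 in Vav-SB tumours, against 7.63, 7.16, 5.56, 7.78, 6.75, 7.56 and 7.26 in CD4-SB tumours. The groups overlapped, with Vav-SB tumour 2 the highest and CD4-SB tumour 3 the lowest, and the difference of 0.56 did not pass (95% interval -0.19 to 1.30, limma adjusted p = 0.33). The H3 gene Hist2h3c2 averaged 5.81 ± 0.45 in Vav-SB against 5.87 ± 0.47 in CD4-SB (-0.06, 95% interval -0.55 to 0.42, limma adjusted p = 0.892). H3 and H4 are thus represented by 1 probe set each, too few to describe a family. In 0 of the 18 genes did every Vav-SB tumour lie above every CD4-SB tumour, where 2.51% of all genes did so. With 18 genes, a count of 0 is near that share. Fully lower in Vav-SB were also 0 of the 18, and the share over all genes in that direction is not given here.

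**Figure D3:**
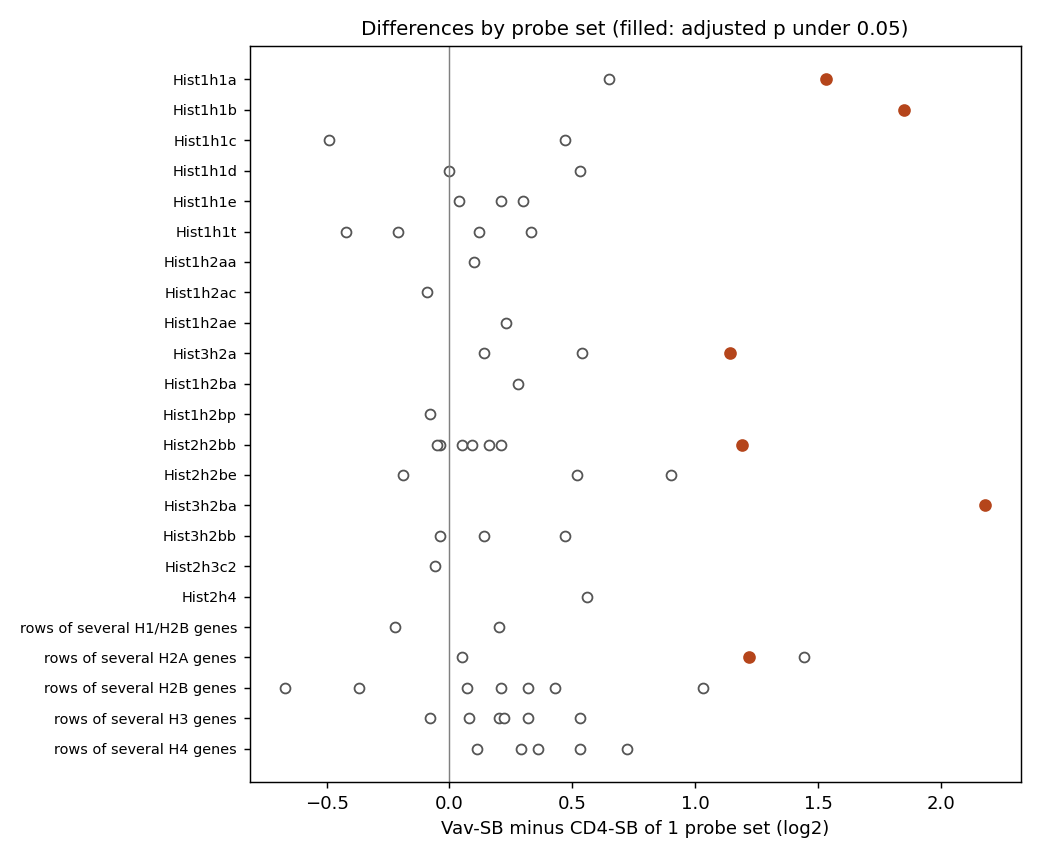
Difference of each single probe set, Vav-SB minus CD4-SB (log2), for the 18 genes and for the rows that name several histone genes; filled points passed at an adjusted p under 0.05 over all probe sets. The 5 filled points of single genes belong to Hist1h1a, Hist1h1b, Hist3h2a, Hist2h2bb and Hist3h2ba, the filled point of a shared row to H2A genes, and probe sets of Hist1h1c and Hist1h1t lie on both sides of 0.

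Tested probe set by probe set, 5 of the 38 passed upward in Vav-SB and 0 downward, where 4.57% of all 194293 probe sets were higher and 3.88% lower (limma, adjusted p under 0.05 over all probe sets). Of the 38, 28 differed upward, with a median of 0.19 against 0.02 over all probe sets. With single tumours left out the count was 2 to 7, and it was 2 or 3 without any 1 of Vav-SB tumours 1, 2, 4, 5 and 7 or CD4-SB tumours 1, 2, 5 and 6. Rows that name several histone genes cannot be given to 1 gene, but 23 of them name histone cluster genes alone. Of these, 1 was higher, 0 were lower, and 19 were above 0, with a median of 0.22.

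The shared rows cover mainly the chromosome 13 core histone genes, most of which have no probe set of their own. The row that passed names 8 H2A genes (Hist1h2ab, Hist1h2ac, Hist1h2ad, Hist1h2ae, Hist1h2ag, Hist1h2ai, Hist1h2an and Hist1h2ao) and was at 5.86, 6.40, 5.34, 5.69, 5.16, 5.23 and 6.11 in Vav-SB tumours, against 3.62, 4.54, 3.38, 5.49, 4.15, 4.86 and 5.20 in CD4-SB tumours. CD4-SB tumours 4 and 7 were the highest of their group, and the groups overlapped through them. The difference was 1.22 ± 0.32 (SE, limma adjusted p = 0.026). A further row of the same 8 genes differed by 1.44 with a wider spread, at 6.36 ± 0.64 in Vav-SB against 4.92 ± 1.65 in CD4-SB (limma adjusted p = 0.156). All 5 rows of H4 genes, which encode one and the same protein, lay above 0, none passed, and 1 had an unadjusted p under 0.05. The brightest was at 12.39, 12.73, 11.98, 12.32, 12.43, 12.83 and 12.51 in Vav-SB tumours, against 11.30, 11.78, 11.37, 12.77, 11.76, 11.91 and 12.58 in CD4-SB tumours (0.53, limma adjusted p = 0.168). Here too, CD4-SB tumours 4 and 7 lay within the Vav-SB range and the other 5 below it. Of 7 rows of H2B genes, 5 were above 0, and the rows ranged from -0.67 to 1.03 although all 7 name the same 4 genes. Of 6 rows of H3 genes, 5 were above 0, at most 0.53, none passed in limma, and the unadjusted p was under 0.05 in 0 of them.

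Genes of S phase were read beside the histone genes. In a list of 36 measured genes of S phase and DNA replication, none of them a histone gene, 2 (5.56%) were higher in Vav-SB and 0 lower, and the median difference was 0.30. The number higher was 6 with array weights, 4 with 1 tumour per title number, with the title number as a random block or with genes above the median level, and 1 with the median over probe sets. They were Dut, the enzyme that removes dUTP (10.25 ± 0.28 in Vav-SB against 9.44 ± 0.58 in CD4-SB, limma adjusted p = 0.0266), and Tyms, thymidylate synthase (9.24 ± 0.45 in Vav-SB against 8.30 ± 0.74 in CD4-SB, limma adjusted p = 0.0478). Ccne2, a cyclin of S phase entry, differed by 1.10 and Uhrf1, which maintains DNA methylation, by 1.16 without passing (limma adjusted p = 0.0508 and 0.0637). The count was 4 without Vav-SB tumour 3 or CD4-SB tumour 2, 5 without CD4-SB tumour 4 or 7, and 0 or 1 without any other single tumour. The mean of the 36 genes was 9.25, 9.18, 8.26, 8.70, 9.06, 8.94 and 8.99 in Vav-SB tumours, against 8.18, 9.0, 7.55, 9.21, 8.16, 8.42 and 9.24 in CD4-SB tumours. Its difference of 0.37 did not pass (exact permutation p = 0.189, two-sided). In a list of 23 genes of G2 and mitosis, 0 passed in limma, 8 had an unadjusted p under 0.05, all 23 were above 0, and the median difference was 0.61. With array weights 6 of the 23 passed. The smallest adjusted p was that of Kif23, a motor protein of cell division (9.39 ± 0.44 in Vav-SB against 8.51 ± 0.87 in CD4-SB, limma adjusted p = 0.0973).

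Tumour by tumour, the CD4-SB group was uneven in both gene sets. CD4-SB tumours 4 and 7 had the highest S phase means of their group and the highest Hist1h1b, and CD4-SB tumour 3 had the lowest S phase mean with the lowest Hist1h1a, Hist1h1e and Hist2h4. CD4-SB tumour 2 departed from this order: its S phase mean of 9.0 and its Hist1h1e of 10.06 lay within the Vav-SB ranges, while its Hist1h1b of 7.05 was the lowest of all 14 tumours. Among Vav-SB tumours, tumour 3 had the lowest S phase mean, 8.26, with the lowest Hist1h1b, Hist1h1e, Hist2h4 and Hist3h2a of its group. That tumour also had the highest Hist1h2ae, Hist1h2bp, Hist2h2be and Hist3h2bb of its group. Its mean over 43 markers of other cell types, described below, was 7.99, the highest of its group, where the next was 7.57. In CD4-SB that marker mean was 7.85 in tumour 4, 7.69 in tumour 7, 8.12 in tumour 3 and 7.52, the lowest, in tumour 2. Whether S phase or marker means go with the histone genes was not tested tumour by tumour. These tumours were singled out after their values were seen.

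**Figure D4:**
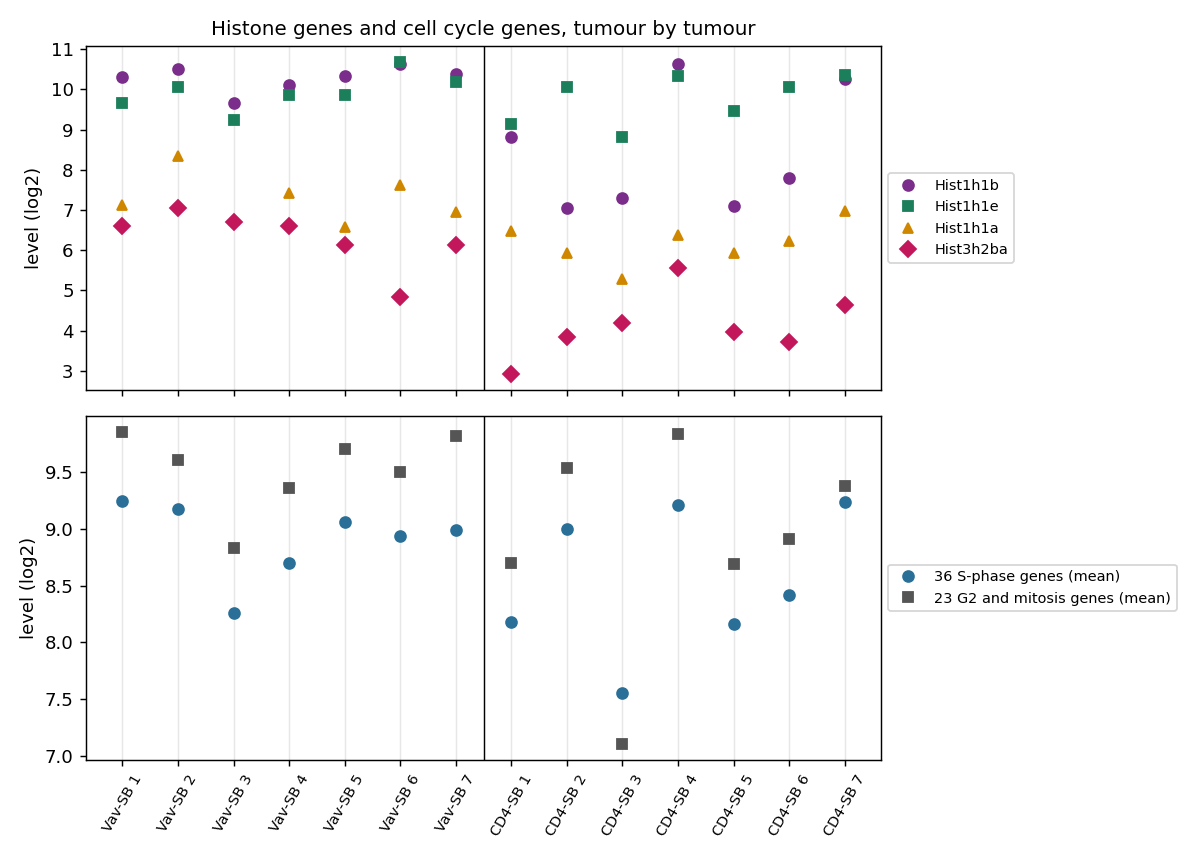
Upper panel: level (log2) of Hist1h1b, Hist1h1e, Hist1h1a and Hist3h2ba in each tumour, Vav-SB tumours left of the line and CD4-SB tumours right of it; lower panel: mean level of 36 S phase and 23 G2 and mitosis genes in the same tumours. CD4-SB tumours 4 and 7 reach Vav-SB values of Hist1h1b, and CD4-SB tumour 2 has an S phase mean of 9.0 with Hist1h1b at 7.05; heights of different genes are not comparable.

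With the S phase mean as a covariate, 3 of the 4 genes still passed: Hist1h1a at 0.86 (limma adjusted p = 0.0442), Hist3h2a at 0.50 (limma adjusted p = 0.0186) and Hist3h2ba at 1.99 (limma adjusted p = 0.00536). The difference of Hist1h1b became 1.34 ± 0.45 (SE) and no longer passed (limma adjusted p = 0.0679). Markers of other cell types also moved with the model. In a list of 43 measured markers of myeloid, dendritic, B, stromal, endothelial, epithelial and erythroid cells, 11 were lower in Vav-SB (8 of 17 myeloid and dendritic markers, such as C1qa and Fcgr3, and Krt5, Sparc and Dcn of 12 stromal, endothelial and epithelial ones), 2 were higher (Tfrc and Pecam1, of which Tfrc is also made by dividing T cells) and 30 did not pass. Tfrc no longer passed without any 1 of Vav-SB tumours 1, 2 and 5 or CD4-SB tumours 1, 5 and 6. All 6 erythroid markers were above 0, with a median difference of 0.42. Vav-SB tumour 3 stood out, with an erythroid mean of 8.06. The other Vav-SB tumours lay at 6.81 to 7.16 and the CD4-SB tumours at 6.40 to 6.84. Above 0 were 0 of 17 myeloid and dendritic markers (median -0.67) and 1 of 8 B and plasma markers (median -0.65). So were 4 of 12 stromal, endothelial and epithelial ones (median -0.38). A mean over the 43 thus pools lists that moved in opposite directions. Of the 8 markers of B and plasma cells 0 passed, while 4 were lower with array weights, 5 with 1 tumour per title number, 4 without CD4-SB tumour 2, 3 without CD4-SB tumour 7 and 1 without Vav-SB tumour 3 or CD4-SB tumour 4. The mean of the 43 was 7.50 ± 0.24 in Vav-SB (7.29 to 7.99) against 7.93 ± 0.29 in CD4-SB (7.52 to 8.36), a difference of -0.43 (exact permutation p = 0.0134, two-sided). On these arrays no marker has a true 0. With that mean as a covariate, Hist1h1a was at 0.79 (limma adjusted p = 0.242), Hist1h1b at 1.52 (0.252), Hist3h2a at 0.38 (0.201) and Hist3h2ba at 1.83 (0.0569), so that 0 of the 4 passed, while over all genes the number higher in Vav-SB went to 427. The standard error of Hist3h2ba grew from 0.38 to 0.50. The part of other cell types in the differences was not tested further. T-lineage markers, 11 genes, averaged 10.59 ± 0.13 in Vav-SB against 10.02 ± 0.37 in CD4-SB, and 4 of them were higher (Bcl11b, Cd3g, Lat and Cd2). This count was 2 with the median over probe sets and 1 with the marker mean of other cell types as a covariate.

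**Figure D5:**
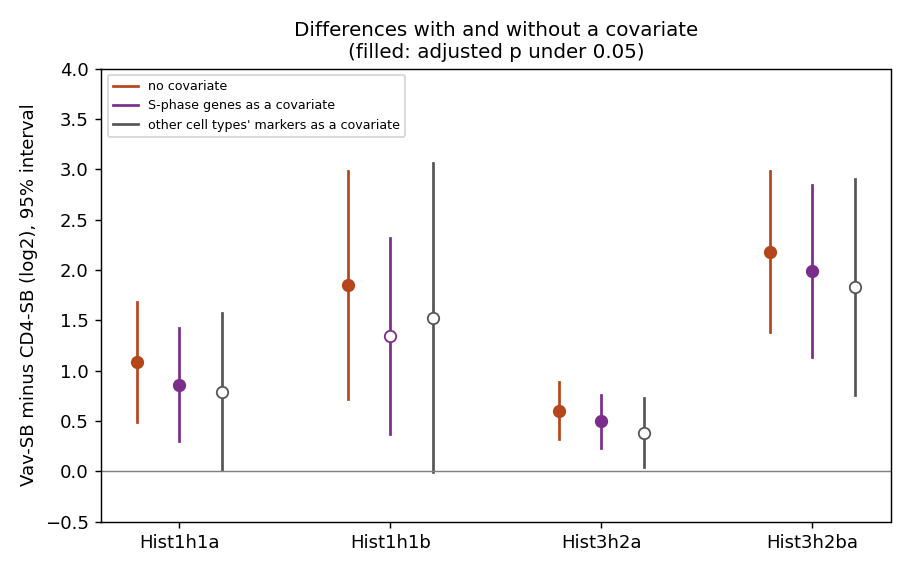
Difference of the 4 genes that passed, Vav-SB minus CD4-SB (log2) with 95% interval, without a covariate, with the mean of 36 S phase genes and with the mean of 43 markers of other cell types as a covariate; filled points passed. Hist3h2ba stays between 1.83 and 2.18 and Hist1h1b between 1.34 and 1.85, and with the marker covariate all 4 points are open.

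Genes that make, process or destroy histone mRNA were read from a list of 21. Of these, 3 were higher in Vav-SB and 0 lower, with a median difference of 0.17, and the count was 2 to 4 with single tumours left out, 6 with array weights and 5 with 1 tumour per title number. Hinfp, the factor that activates H4 genes, averaged 8.13 ± 0.07 in Vav-SB against 7.80 ± 0.15 in CD4-SB (0.33, limma adjusted p = 0.0112). Srrt, a partner of the nuclear cap-binding complex, was higher by 0.38 (limma adjusted p = 0.0157), and Cstf2, a cleavage factor of mRNA 3′ ends, by 0.41 (limma adjusted p = 0.049). Casp8ap2, a component of the nuclear bodies where histone genes are transcribed, averaged 9.45 ± 0.31 in Vav-SB against 8.90 ± 0.46 in CD4-SB (limma adjusted p = 0.0749). Slbp, which binds the stem-loop of histone mRNA, averaged 7.33 ± 1.34 in Vav-SB against 7.43 ± 0.45 in CD4-SB (limma adjusted p = 0.926). The Vav-SB tumours were widely spread, from 4.77 to 8.35 with a median of 7.95, against 6.88 to 8.11 with a median of 7.46 in CD4-SB.

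Of 10 replacement and variant histone genes outside the clusters, 1 was higher and 0 lower, with a median difference of 0.27. H1f7, a linker histone of spermatids, differed by 0.28 (6.58 ± 0.10 in Vav-SB against 6.30 ± 0.13 in CD4-SB, limma adjusted p = 0.0253), while of 8 markers of male germ cells 0 passed in limma, and their unadjusted p-values were under 0.05 in 0 of 8. H2az2, an H2A.Z gene, and H2ax, whose protein marks DNA breaks, differed by 0.48 and 0.66 without passing (limma adjusted p = 0.0561 and 0.132), and H2aj by -0.34 (limma adjusted p = 0.12). Of 19 histone chaperone and assembly genes, 3 were higher and 0 lower. They were Atrx, which with Daxx deposits H3.3 (10.91 ± 0.12 in Vav-SB against 10.47 ± 0.18 in CD4-SB, limma adjusted p = 0.00535), Asf1a, a carrier of H3 and H4 (10.65 ± 0.20 in Vav-SB against 9.97 ± 0.47 in CD4-SB, limma adjusted p = 0.022), and Anp32e, which removes H2A.Z (11.35 ± 0.42 in Vav-SB against 10.59 ± 0.47 in CD4-SB, limma adjusted p = 0.0316). Subunits of the replication-coupled assembly factor did not pass, Chaf1b at 0.49 (limma adjusted p = 0.187) and Chaf1a at 0.29 (limma adjusted p = 0.508). With single tumours left out, the count was 0 to 3 for the replacement and variant histones and 2 to 4 for the chaperones. With array weights 3 replacement or variant histones were higher, and with the S phase mean as a covariate 0 were higher and 1 was lower. The marker mean of other cell types was also used as a covariate. Then 0 genes of the S phase, histone mRNA, replacement and variant histone, and chaperone lists were higher, and 1 chaperone gene was lower.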

How the data were processed

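RNA of 14 frozen thymic lymphomas was amplified, labelled with biotin and hybridised to mouse exon arrays, per the labels' protocols. Whether the amplification primers need a poly(A) tail, which most histone cluster mRNAs lack, is not stated there. Per the submitters' processing notes, Partek and RMA were used, with no version or setting given. The deposited table holds 1 value per probe set and tumour, read here as log2 from its range of 2.03 to 14.03. The log base is not given in the sources used here. Column medians of 7.46 to 7.50 mean that a change in a tumour's total RNA cannot be seen. Any 2 tumours correlated at 0.877 to 0.968 over all probe sets, so 0 columns were duplicates. Precision is limited by the number of arrays.

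Of 194293 probe sets, 179496 had 1 gene symbol, 1328 several and 13469 none in the platform annotation. Those with 1 symbol named genes, and their values were averaged per gene. Of the symbols, 13727 were current in the RefSeq table of GRCm38.p6, 1996 were replaced through a synonym, 18 member symbols and 25 whose current symbol was in use were kept, 32 had several replacements and 5 were unmatched. Dim genes were kept.

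The strain label gave the groups, and tumours were numbered in accession order. CD4-SB tumours 1 and 2 share the first number of their titles, as do tumours 5, 6 and 7. The labels do not say what it means or that each tumour came from its own animal, so the p-values describe the spread among these samples only. Differences, Vav-SB minus CD4-SB, were fitted with limma 3.58.1 under R 4.3.3 (lmFit, then eBayes) on all 15803 genes or all probe sets, adjusted by Benjamini-Hochberg with a threshold of 0.05. The gene test was checked on simulated data. Means over the S phase genes and the other cell types' markers were compared by an exact permutation test over 3432 splits. Intervals are at the 95% level.

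The members and gene lists were chosen with earlier results of these data known, and the lists are textbook lists. Members described with all tumours are those past the threshold, those with the largest differences or a tumour apart from its group, and the genes and rows set beside them. Up to 4 genes per list with the smallest adjusted p were named by rule. Slbp, Chaf1a, Hist1h1e and the rows of several genes were picked beyond that rule, after their values were seen. Alternatives were a median over probe sets, quantile normalization, filters on dim genes and probe sets, array weights, a trended prior, the title number (1 tumour each, or a random block), both covariates, shared rows added, and each tumour left out.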

Additional observations from a re-analysis of the deposited data

Results flagged for a closer look

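In 36 groups (18 genes in 2 models), 2 held a tumour farther from the rest of its group than Dixon's critical value at the 95% level allows for 7 samples, and chance alone flags about 1 in 20. In Hist3h2ba, Vav-SB tumour 6 stood at 4.83, where the next lowest Vav-SB tumour was at 6.12 (ratio of gap to range 0.583). In Hist1h2aa, CD4-SB tumour 7 stood at 8.27, where the next highest CD4-SB tumour was at 7.94 (ratio 0.578).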

How the results depend on the processing

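The 4 genes kept their direction under each alternative that kept the gene, and 0 of the 18 genes was called lower under any. The number of histone cluster genes higher in Vav-SB was 2 with genes above the median level, where 7 members were left, 2 with probe sets above it, where 8 were left, and 0 with the marker mean of other cell types as a covariate, against 4 of 18. With that covariate 427 of all genes were higher and 220 lower, and the median over the 18 genes was 0.04. The median over H2A genes was 0.35 with genes above the median level and also with probe sets above it, 2 H2A genes being left in each. Probe sets of the histone cluster genes past the threshold were 3 among 16 bright probe sets and 3 with 1 tumour per title number, against 5, and 2 to 7 with single tumours left out. Leaving out single tumours gave 3 to 5 histone cluster genes higher, where 856 to 1210 of all genes were. The median over the 18 was then 0.18 to 0.27. Differences were 0.90 to 1.22 (Hist1h1a), 1.62 to 2.22 (Hist1h1b), 0.55 to 0.68 (Hist3h2a) and 1.98 to 2.42 (Hist3h2ba). With rows of several histone genes added to the gene fit, 6 of 41 features were higher, where 1152 of all 15826 were. Beside the 4 genes, these were a row of 8 H2A genes (1.22, limma adjusted p = 0.0185) and a row of 4 H2B genes (0.43, limma adjusted p = 0.0371). The H2B row did not pass in the fit over all probe sets (limma adjusted p = 0.0823). No paired analysis was possible because the tumour numbers were given in accession order and pair nothing across the models. The values used here come with no background estimate, so signal over background was not assessed. The causes of these changes were not tested. Of the 4 genes, the filter on dim genes left out Hist1h1a and Hist3h2ba. The filter on dim probe sets left out Hist3h2ba and the dim probe set of Hist1h1a, which was then at 0.65 (limma adjusted p = 0.101).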
